A study of Mus musculus with 6 samples.

Results

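The 10 genes described here encode liver enzymes that attach glucuronic acid or another sugar (the UDP-glucuronosyltransferases Ugt2b1, Ugt2b5, Ugt2b34, Ugt2b36 and Ugt3a1) or sulfate (the sulfotransferases Sult1a1, Sult1b1, Sult1d1, Sult5a1 and Sult1c2) to small molecules. They were chosen by name from the 18193 genes that the platform annotation pairs with a probe set of 1 gene symbol, and each was read from its brightest such probe set. Liver RNA of male C57BL6/J mice, 6 to 8 weeks old at the start, had been hybridised to Affymetrix Mouse Genome 430 2.0 arrays. In each of 2 studies, of 2 and of 5 months, the groups were a fast-food diet with canertinib, the fast-food diet alone and chow, and 6 arrays were made in all, 1 per group. Canertinib is an irreversible kinase inhibitor of the epidermal growth factor receptor family. It was given in the food during the whole 2-month study, at a dose estimated as 80 mg/kg daily, and by intraperitoneal injection of 80 mg/kg on 5 days of each of the final 5 weeks in the 5-month study, in which the mice on diet alone were injected with PBS. The labels name no injection for 5-month chow mice. The fast-food diet held 21% fat, 34% sucrose and 0.2% cholesterol, with glucose at 18.9 g/L and fructose at 23.1 g/L in the drinking water. Each array carried RNA pooled from 3 to 4 livers, so the spread between mice was averaged out before measurement and no difference within a study has a replicate check.

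UDP-glucuronosyltransferases sit in the membrane of the endoplasmic reticulum and transfer a sugar from a UDP-sugar to steroids, bile acids, bilirubin and drugs, and cytosolic sulfotransferases transfer sulfate from the cosubstrate PAPS to phenols, steroids and catecholamines. Both reactions make their substrates more water-soluble, so that transporters can move them into bile or blood. Hepatocytes are the main site of both in the body. The UGT2B genes and several SULT1 genes are neighbours, and mouse UGT2B genes are close copies of each other, so a probe set of one may also bind transcripts of another. Their probe sequences were not used here.

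The start regions of the UDP-glucuronosyltransferase genes and of the 2 sulfotransferase genes with the largest positive differences under the drug are shown because the first group shares a sequence that the second lacks. They are RefSeq windows of build GRCm38.p6, from 250 bases before to 50 bases after each annotated start. They are printed 5′ to 3′ on the strand of the gene. Capitals mark each match, on either strand, to the motif GTTA, 4 bases of any kind and TTAAC.
Ugt2b1 (chr5:86926454-86926753, minus strand): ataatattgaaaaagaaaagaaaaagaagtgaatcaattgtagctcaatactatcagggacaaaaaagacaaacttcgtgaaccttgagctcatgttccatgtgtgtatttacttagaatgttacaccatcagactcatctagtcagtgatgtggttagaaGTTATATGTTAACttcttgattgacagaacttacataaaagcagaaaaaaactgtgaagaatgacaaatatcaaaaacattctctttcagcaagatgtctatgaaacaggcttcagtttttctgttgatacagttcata
Ugt2b5 (chr5:87140291-87140590, minus strand): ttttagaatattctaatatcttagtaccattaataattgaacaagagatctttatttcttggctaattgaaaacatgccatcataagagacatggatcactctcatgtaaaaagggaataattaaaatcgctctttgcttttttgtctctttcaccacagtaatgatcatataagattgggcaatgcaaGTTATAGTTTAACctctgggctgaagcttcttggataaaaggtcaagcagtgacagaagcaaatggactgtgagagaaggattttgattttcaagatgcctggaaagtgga
Ugt2b34 (chr5:86906888-86907187, minus strand): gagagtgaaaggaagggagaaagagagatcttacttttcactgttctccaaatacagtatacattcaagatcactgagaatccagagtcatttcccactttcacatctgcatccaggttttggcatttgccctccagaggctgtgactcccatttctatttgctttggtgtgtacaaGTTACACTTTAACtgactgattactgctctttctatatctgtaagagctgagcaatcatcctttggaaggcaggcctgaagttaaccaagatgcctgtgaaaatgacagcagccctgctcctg
Ugt2b36 (chr5:87092506-87092805, minus strand): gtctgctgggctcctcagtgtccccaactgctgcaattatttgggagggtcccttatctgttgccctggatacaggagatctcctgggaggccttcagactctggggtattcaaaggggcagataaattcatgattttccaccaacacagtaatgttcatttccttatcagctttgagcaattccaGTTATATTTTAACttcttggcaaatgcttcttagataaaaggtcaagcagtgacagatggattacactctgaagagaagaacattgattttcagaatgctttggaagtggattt
Ugt3a1 (chr15:9279579-9279878, plus strand): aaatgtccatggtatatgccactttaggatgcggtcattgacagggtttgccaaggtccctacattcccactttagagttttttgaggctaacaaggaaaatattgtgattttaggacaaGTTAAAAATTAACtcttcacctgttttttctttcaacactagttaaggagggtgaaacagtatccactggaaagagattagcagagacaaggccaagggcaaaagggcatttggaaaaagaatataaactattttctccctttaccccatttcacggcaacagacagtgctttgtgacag
Sult1a1 (chr7:126676369-126676668, minus strand): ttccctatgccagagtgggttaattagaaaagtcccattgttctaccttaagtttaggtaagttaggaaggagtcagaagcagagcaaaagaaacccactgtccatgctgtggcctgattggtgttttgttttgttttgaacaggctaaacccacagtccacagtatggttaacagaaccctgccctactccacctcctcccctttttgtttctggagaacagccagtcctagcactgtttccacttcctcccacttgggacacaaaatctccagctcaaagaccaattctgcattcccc
Sult1d1 (chr5:87568957-87569256, minus strand): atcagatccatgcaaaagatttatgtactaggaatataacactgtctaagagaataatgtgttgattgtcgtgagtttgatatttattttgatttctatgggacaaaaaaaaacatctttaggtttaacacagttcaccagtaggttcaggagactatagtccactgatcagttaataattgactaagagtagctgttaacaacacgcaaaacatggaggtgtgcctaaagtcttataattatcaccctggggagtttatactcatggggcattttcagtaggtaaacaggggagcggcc

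This motif, searched on both strands, occurred once in the window of each of the 5 UDP-glucuronosyltransferase genes and in no window of the 5 sulfotransferase genes. Of all 32851 promoter windows of this length in the table, 62 held it, or 0.189%. It lay 89 to 77 bases before the start of Ugt2b1, 61 to 49 before that of Ugt2b5, 73 to 61 before Ugt2b34, 64 to 52 before Ugt2b36 and 130 to 118 before Ugt3a1. This motif was written down after the UGT2B windows had been read, and a match is a run of letters, not a shown binding site. The 4 motifs of transcription factors searched beside it were found in none of the windows of the 10 genes, on either strand: the antioxidant response element core TGACNNNGC, held by 12.4% of all windows, the STAT-type TTCNNNGAA with 8.30%, the C/EBP-type TTGCNNCAA with 2.08% and the DR1-type repeat, AGGTCA followed after 1 base by AGGTCA, with 0.0396%. The TATA box core TATAAA was found, on either strand, in 13.6% of windows and for Ugt3a1 and Sult1d1. It lay 8 to 3 bases before the start of Ugt3a1, and for Sult1d1 on the opposite strand after the start. In global alignments the windows of Ugt2b5 and Ugt2b36 were identical at 62.2% of columns, whereas the other pairs among the 4 UGT2B genes ranged between 50.3% and 53.7%, like Ugt2b1 against Sult1d1 with 51.0%.

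Signals are MAS5 values on a linear scale, and for differences they were raised to a floor of 221.4, the median of all values, before taking log2. A gene counted as measured when any array exceeded the floor, as 13988 of the 18193 did. All 10 members were measured, 9 of them exceeded the floor on all 6 arrays, and Sult1c2 was under it on 1. Hepatocyte markers were present as the label says. All 8 listed ones with a probe set were above the floor on every array, and Alb, the albumin gene, had signals between 55464 and 92449.7. Between the chow arrays, which differ by study and by the age of the mice, 1.28% of measured genes were higher and 1.32% lower at 5 months by 2-fold or more, and no member was.

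**Figure D1:**
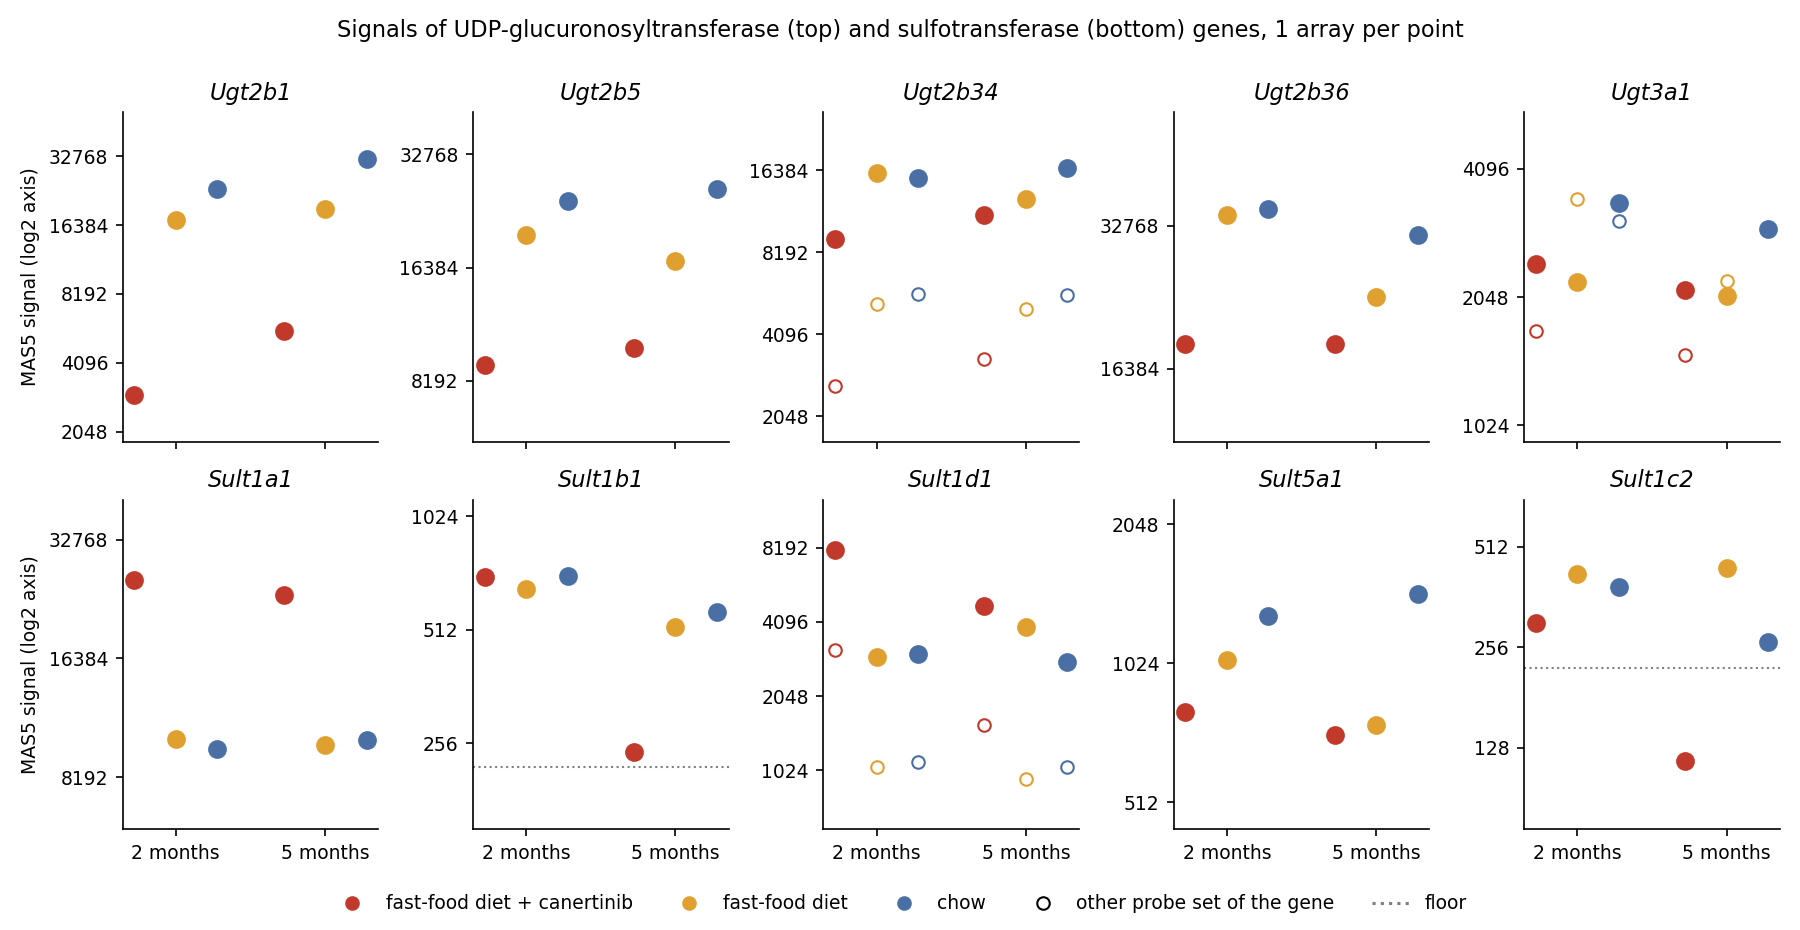
MAS5 signal (log2 axis, own scale per panel) of the 10 genes on each array, grouped by study, with fast-food diet plus canertinib left, fast-food diet in the middle and chow right. Filled points are the probe set used and open points the other probe set of the gene. Drug arrays are lowest for the 4 UGT2B genes in both studies and highest for Sult1a1 and Sult1d1.

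The first comparison was of mice on the fast-food diet with and without canertinib. On the single drug arrays the UGT2B members had lower signals than on the diet arrays, and Sult1a1 and Sult1d1 higher ones, in both studies. By the probe sets used, the 5-month log2 differences of Ugt2b34, -0.19, Ugt2b36, -0.33, and Sult1d1, 0.28, were small. The SD of a single array, estimated from the difference of the 2 chow arrays, was 0.28, and a difference of 2 arrays spreads more widely than that. The other probe sets of Ugt2b34 and Sult1d1 gave -0.62 and 0.72. Ugt2b1 fell and Sult1a1 rose past the threshold of a fit over both studies. The other 8 members did not pass it. At 2 months 2 of the 10 members were at least 2-fold lower, against 3.26% of all measured genes, and 2 were at least 2-fold higher, against 3.55%. At 5 months 3 were at least 2-fold lower, against 2.73%, and 1 was at least 2-fold higher, against 2.19%. These members were chosen with earlier results known, so the distance from those shares is a description.

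Ugt2b1 encodes a UGT2B enzyme whose rat counterpart conjugates morphine and bisphenol A. At 2 months its signal was 2964 with canertinib and diet, 17242.5 with diet alone and 23495 with chow. At 5 months it was 5648 with canertinib and diet, 19243 with diet alone and 31963 with chow. The 2 drug arrays lay below the other 4, and the order drug, diet, chow was the same in both studies. The drug differences were -2.54 at 2 months and -1.77 at 5 months on the log2 scale, or 5.82-fold and 3.41-fold lower, the only member at least 2-fold lower at both times, as were 0.865% of measured genes.

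Ugt2b5, another UGT2B enzyme, had signals of 9045 with canertinib and diet, 19995 with diet and 24538 with chow at 2 months. At 5 months these were 10015 with canertinib and diet, 17065 with diet and 26486 with chow. Again the drug arrays were the lowest 2 of the 6 and the chow arrays the highest 2. The log2 differences with the drug were -1.14 and -0.77, so that 2-fold was reached at 2 months only.

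Ugt2b36, of the same subfamily, had 18455 with canertinib and diet, 34505 with diet and 35436 with chow at 2 months, and 18457 with canertinib and diet, 23169.7 with diet and 31306 with chow at 5 months. Its drug arrays were nearly equal, while the diet arrays were not. The log2 differences with the drug were -0.90 and -0.33.

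Ugt2b34 had 9194 with canertinib and diet, 16103 with diet and 15311 with chow at 2 months, and 11250.4 with canertinib and diet, 12866 with diet and 16786 with chow at 5 months. Its drug differences were -0.81 and -0.19 on the log2 scale by this probe set, and -1.01 and -0.62 by its other one. The 4 UGT2B members were thus lower with the drug at both times, by every probe set, and each had the larger difference at 2 months. Whether the size differed between the studies, which also differ in route and duration of the drug, was not tested.

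Ugt3a1 belongs to a separate family, and the human enzyme of this name transfers N-acetylglucosamine in place of glucuronic acid. Its brighter probe set gave 2454 with canertinib and diet, 2219 with diet and 3413 with chow at 2 months, and 2127 with canertinib and diet, 2061 with diet and 2962 with chow at 5 months. The drug differences were 0.15 and 0.05 by this probe set. The dimmer probe set gave -1.03 and -0.58, so the 2 probe sets disagreed on the drug and no direction is given for the gene.

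Among the sulfotransferases, Sult1a1 encodes the phenol sulfotransferase of liver. Its signal was 25861 with canertinib and diet, 10243 with diet and 9683 with chow at 2 months. At 5 months it was 23702 with canertinib and diet, 9876 with diet and 10198 with chow. The 4 arrays without the drug lay between 9683 and 10243, and both drug arrays stood far above them. The log2 differences with the drug were 1.34 and 1.26, or 2.52-fold and 2.40-fold higher. Sult1a1 was the only member at least 2-fold higher at both times, as were 0.951% of measured genes. It has 1 probe set, whose ending marks that it matches several transcripts of the gene, so no second probe set checks it.

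Sult1d1 encodes an enzyme that sulfates catecholamines in mice. Its signal was 8012 with canertinib and diet, 2956 with diet and 3021 with chow at 2 months, and 4771 with canertinib and diet, 3919.9 with diet and 2824 with chow at 5 months. Both drug arrays were the highest of their study, with log2 differences of 1.44 and 0.28. The other probe set gave 1.59 and 0.72. Both probe sets therefore had a larger difference at 2 months than at 5 months.

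Sult1b1 encodes an enzyme that sulfates thyroid hormones and phenols. Its signal was 707 with canertinib and diet, 658.5 with diet and 709 with chow at 2 months, and 242 with canertinib and diet, 521 with diet and 569.8 with chow at 5 months. One array, that of the 5-month drug group, stood below the other 5, and the log2 differences were 0.10 and -1.11. The signal of that array was close to the floor of 221.4. With other floors and normalizations the 5-month log2 difference ranged between -1.11 and -0.70, so 2-fold was not reached in every setting.

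Sult1c2, a sulfotransferase of the SULT1C group, was dim. It had 303 with canertinib and diet, 424 with diet and 388 with chow at 2 months, and 116.5 with canertinib and diet, 443 with diet and 265 with chow at 5 months. The 5-month drug array was under the floor, which makes the gene at least 2.00-fold lower there, and the 2-month log2 difference was -0.48. With other floors and normalizations the 5-month log2 difference ranged between -1.93 and -0.46.

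Sult5a1 had 803 with canertinib and diet, 1042 with diet and 1299 with chow at 2 months, and 716 with canertinib and diet, 753 with diet and 1448 with chow at 5 months. Its drug differences were -0.38 and -0.07, and both chow arrays lay above the other 4.

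The median log2 difference with the drug was -0.90 at 2 months and -0.33 at 5 months over the 5 UDP-glucuronosyltransferases, and 0.10 and -0.07 over the 5 sulfotransferases, whose members lay on both sides of 0. The median over all measured genes was 0 in each comparison. Against chow drug-treated livers had 2 members lower and 2 higher by 2-fold or more at 2 months, against 2.74% and 3.8% of measured genes, and 4 lower and 1 higher at 5 months, against 2.72% and 2.82%. All 5 UDP-glucuronosyltransferases were lower than in chow livers at both times, with medians of -0.94 and -0.76. In any amount, 6 of the 10 members were lower at both times, namely the 4 UGT2B genes, Sult5a1 and Sult1c2, and 3 were higher at both, namely Sult1a1, Sult1d1 and, by 1 of its probe sets, Ugt3a1. Over all measured genes these shares were 27.0% and 25.9%. With the dimmer probe sets in place of the brighter ones, 4 members were at least 2-fold lower at 2 months and the 5-month median of the UDP-glucuronosyltransferases was -0.62.

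**Figure D2:**
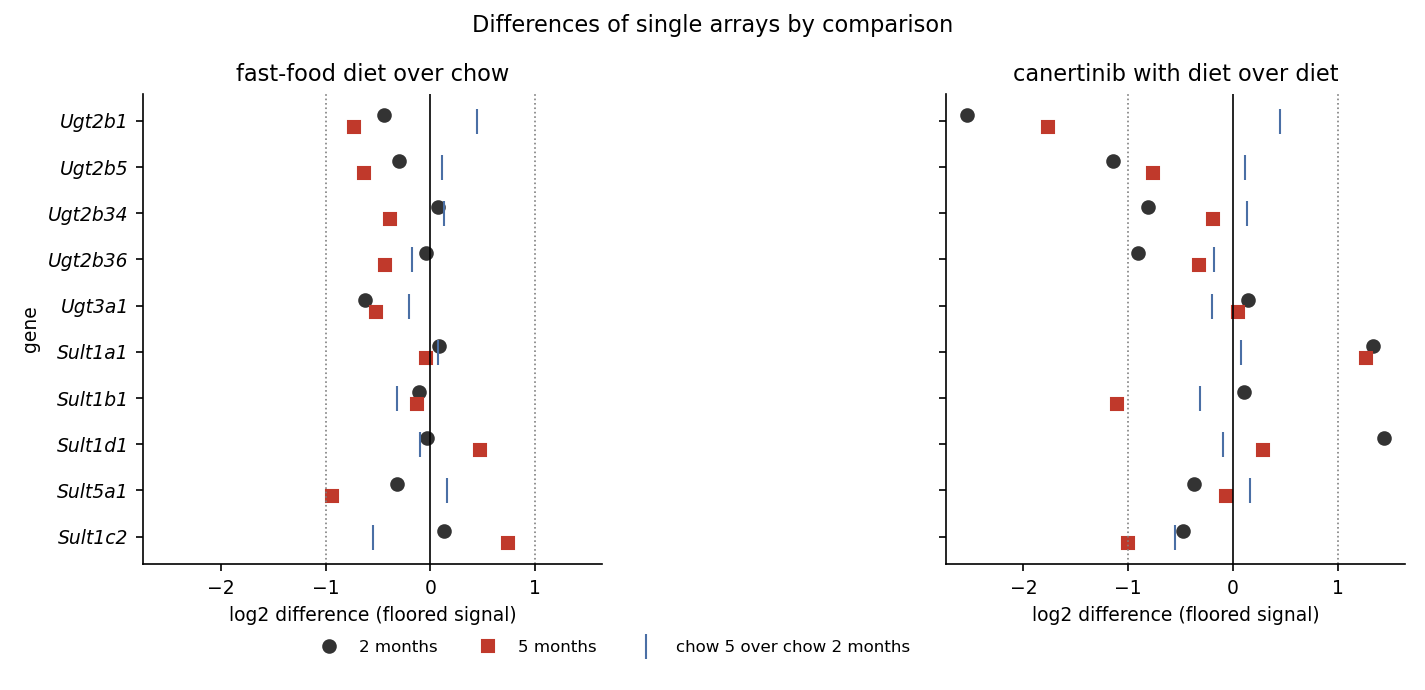
Log2 differences between single arrays for the 10 genes, fast-food diet over chow in the left panel and canertinib with diet over diet in the right, with circles for 2 months and squares for 5 months. Blue ticks give chow at 5 months over chow at 2 months and dotted lines mark 2-fold. Ugt2b1 lies farthest left under the drug, at -2.54 and -1.77, and Sult1a1 lies right of the 2-fold line at both times.

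The additive fit with limma took log2 signals of all 6 arrays with terms for treatment and study, which treats the 2 studies as repeats of each other, and adjusted p-values over all 13988 measured genes by the Benjamini-Hochberg method. It called 0.307% of genes lower and 0.407% higher with the drug at an adjusted p under 0.05. Of the members it called 1 lower and 1 higher. Ugt2b1 had a log2 difference of -2.15 ± 0.22 (SE, 6 arrays) with an adjusted p of 0.0311, and that p ranged between 0.00125 and 0.0860 over 10 other settings, 7 of which kept the call. For Sult1a1 limma gave 1.30 ± 0.16 with an adjusted p of 0.0470, ranging between 0.00525 and 0.0860 over 9 settings, 6 of which kept the call. Ugt2b5 had -0.96 ± 0.19 and was not called (limma adjusted p = 0.116), although 2 of 10 settings called it, and Sult1d1 had 0.86 ± 0.27 and was not called (limma adjusted p = 0.243). Ugt2b34 and Ugt2b36 had -0.50 ± 0.20 and -0.62 ± 0.24 and were not called under any setting, and their 95% confidence intervals, unadjusted, ran between -1.01 and 0.01 and between -1.22 and -0.01.

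**Figure D3:**
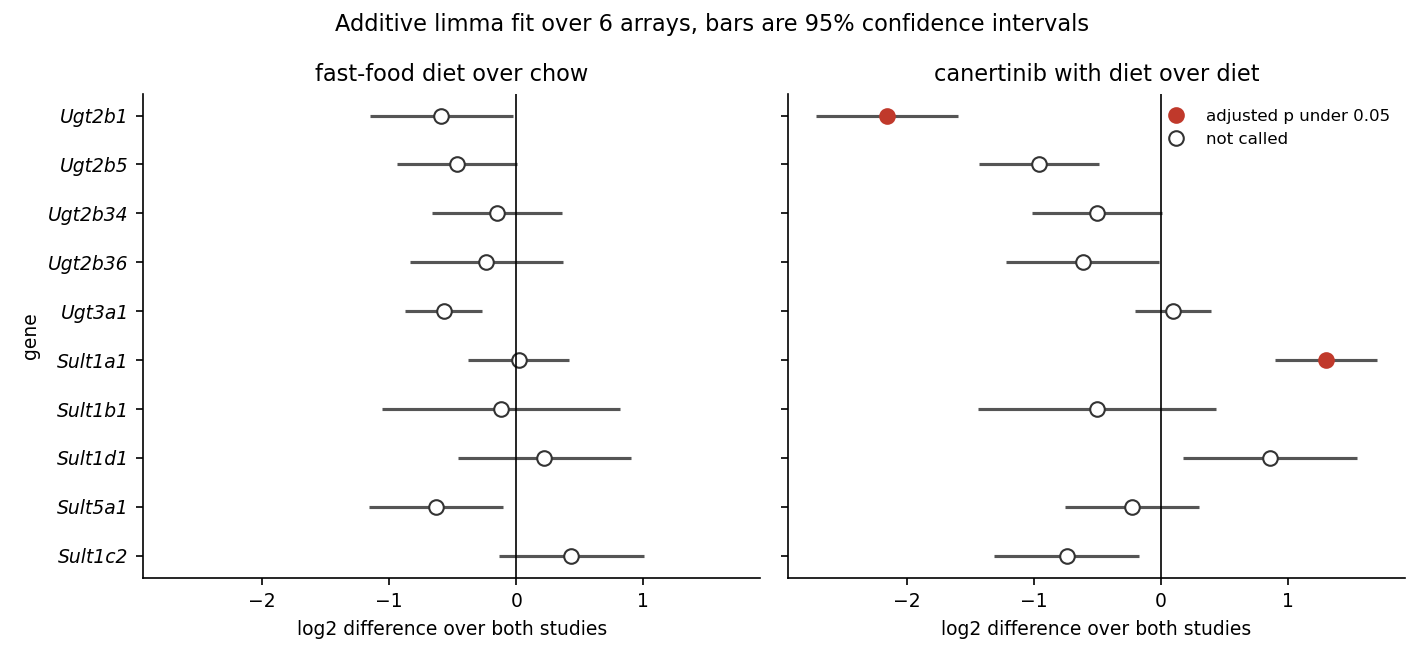
Log2 differences of the 10 genes from the additive limma fit over 6 arrays, for fast-food diet over chow in the left panel and canertinib with diet over diet in the right. Points are estimates, bars are unadjusted 95% confidence intervals, and filled red points have an adjusted p under 0.05, which holds for Ugt2b1 and Sult1a1 in the drug panel and for no gene in the diet panel.

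Other measures moved with the drug as well. All 8 hepatocyte markers were higher with it at both times, with median log2 differences of 0.26 and 0.50 and a summed signal of 504080 and 396171 on drug arrays, 361502 and 263766 on diet arrays and 310624 and 342422 on chow arrays. Of 9 measured neutrophil markers 9 were higher at 2 months and 8 at 5 months, none was lower, and their summed signal was 17049.6 and 18094 on drug arrays, 4470.0 and 3630.0 on diet arrays and 3922 and 4092 on chow arrays. Camp, the cathelicidin gene of neutrophil granules, was under the floor on all 6. The 3′ minus 5′ log2 signal of the actin control probe sets, a sign of RNA quality, was 1.19 and 1.12 on drug arrays, 0.85 and 0.98 on diet arrays and 0.94 and 0.85 on chow arrays. For the Gapdh control probe sets it was -0.20 and -0.14 on drug arrays, -0.30 and -0.22 on diet arrays and -0.18 and -0.09 on chow arrays. By Gapdh the drug arrays thus lay between the diet and the chow array of their study. Of 11 stellate cell markers 9 were lower with the drug at 2 months and 11 at 5 months, and their summed signal was 24046 and 18619 on drug arrays, 25857 and 33292 on diet arrays and 15777 and 13393 on chow arrays. The part of these measures in the member differences was not tested. In bulk liver, fewer cells of a type and less RNA per cell cannot be told apart.

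The second comparison was of the fast-food diet with chow. No member was at least 2-fold lower at 2 or 5 months, against 1.55% and 1.83% of measured genes, and none was at least 2-fold higher, against 1.98% and 2.72%. The 5 UDP-glucuronosyltransferases had a median log2 difference of -0.30 at 2 months and -0.52 at 5 months. By the brighter probe sets 4 of them were lower in some amount at both times, as were 26.9% of measured genes. The exception was Ugt2b34 with 0.07 and -0.38, whose other probe set gave -0.13 and -0.17. Ugt2b1 had -0.45 and -0.73 and Ugt2b5 -0.30 and -0.63, while Ugt2b36 had -0.04 and -0.43. Ugt3a1 had -0.62 and -0.52 by its brighter probe set, and 0.17 and -0.40 by the other. The chow arrays themselves differed by 0.44 for Ugt2b1 and 0.11 for Ugt2b5, higher at 5 months, and by -0.18 for Ugt2b36.

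The sulfotransferases had medians of -0.03 and -0.05 with the diet. Sult5a1 had -0.32 and -0.94, where the 5-month array with 753 lay well under the 1448 of its chow array, and both chow arrays were the highest of the 6. Sult1c2 had 0.13 and 0.74, but its chow arrays differed by -0.55 from each other. Sult1a1 had 0.08 and -0.05 and Sult1b1 had -0.11 and -0.13. Sult1d1 had -0.03 and 0.47 by its brighter probe set, and -0.08 and -0.16 by the other, so the 2 disagreed at 5 months. In the additive fit limma called 0% of genes lower and 0.0286% higher with the diet, and 0 of the 10 members. At an unadjusted p under 0.05 limma had 3 members, all lower, against 620 lower and 760 higher of the 13988 measured genes. They were Ugt2b1 with -0.59 ± 0.22, Ugt3a1, by its brighter probe set, with -0.57 ± 0.12 and Sult5a1 with -0.63 ± 0.21. Their limma adjusted p were 0.479, 0.247 and 0.431. The diet and the drug comparison share the arrays of the fast-food group, so a low or high fast-food array moves both in opposite ways. Macrophage markers had a summed signal of 38698.5 and 52953 on diet arrays and 16262 and 16367 on chow arrays, and 12 of 12 were higher with the diet at 2 months and 11 at 5 months. Of 11 stellate cell markers 9 and then 11 were higher with the diet, with medians of 0.43 and 0.80. Of 8 hepatocyte markers 6 were higher and 2 lower at 2 months, with a median of 0.16, and 8 were lower at 5 months, with a median of -0.30. The part of these markers in the member differences was not tested.

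Of the 10 members, 6 are neighbours on chromosome 5. Between Ugt2b34 and Sult1e1, the outermost genes considered, RefSeq lists 13 protein-coding genes, all of these families, in the order Ugt2b34, Ugt2b1, Ugt2b35, Ugt2b36, Ugt2b5, Ugt2b37, Ugt2a3, Ugt2b38, Ugt2a1, Ugt2a2, Sult1b1, Sult1d1 and Sult1e1. Of these, 10 were measured, Ugt2b37 was under the floor on all arrays, and 2 had no probe set with their symbol alone. The first 5 genes of the row were lower with the drug at both times, the last 2 were higher at both, and those between had log2 differences between -1.11 and 0.10. Among those between, Ugt2b38 was under the floor on both drug arrays, so its small differences were set by the floor. In other settings they ranged between -1.01 and 0.004 at 2 months and between -2.27 and 0 at 5 months. The 3 other UGT2B genes of the row, Ugt2b35, Ugt2b37 and Ugt2b38, also held the GTTA motif in their windows, and Ugt2a3 and Sult1e1 did not.

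**Figure D4:**
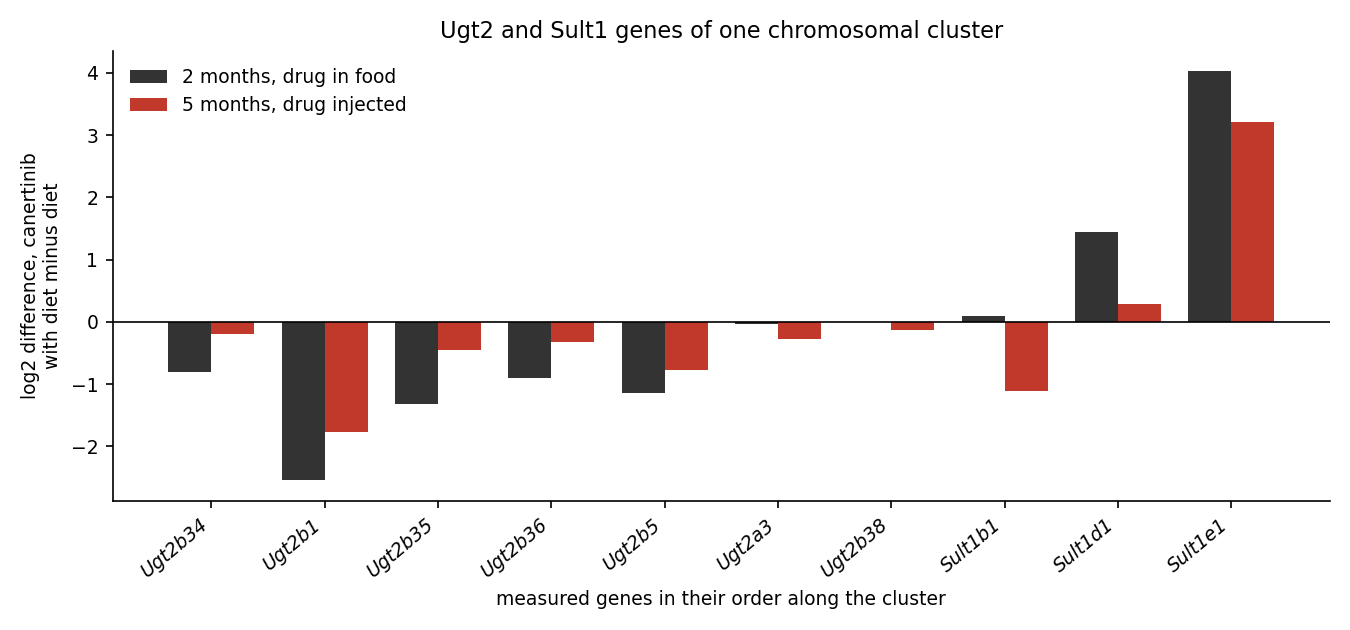
Log2 difference of canertinib with diet minus diet for the 10 measured genes of the Ugt2 and Sult1 cluster, in their order along the chromosome and not to scale of distance, with black bars for 2 months and red bars for 5 months. The bars of Sult1e1 are lower bounds, since its diet arrays were under the floor. Ugt2b38 was under the floor on both 2-month arrays compared and on the 5-month drug array, so its bars are limited by the floor. Bars point down for the 5 genes at the left and up for the 2 at the right in both studies.

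Of the other UDP-glucuronosyltransferases, 4 of 17 listed genes were measured. Ugt2b35 had signals of 4736 with canertinib and diet, 11824 with diet and 11927 with chow at 2 months, and 7307 with canertinib and diet, 10021 with diet and 14337.5 with chow at 5 months. Its drug differences were -1.32 and -0.46, and limma did not call it (adjusted p = 0.186). Ugt2b38 was lower on every array of the diet, with or without the drug, than on the chow arrays. It had 72.5 and 50.4 on drug arrays, 146 and 243 on diet arrays and 1244 and 1287 on chow arrays, so that with the diet it was at least 5.62-fold lower at 2 months and 5.30-fold lower at 5 months. The additive fit did not call it (limma adjusted p = 0.0796), though 1 of 9 settings did, and the range over those settings was 0.0460 to 0.174. Ugt3a2 and Ugt2a3 had differences between -0.58 and 0.16 in the 4 comparisons.

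Of the other sulfotransferases, 5 of 16 listed genes were measured. Sult1e1, the estrogen sulfotransferase, rose with the drug. Its signals were 3603 and 2039.6 on drug arrays, 147 and 14.6 on diet arrays and 13.9 and 9.5 on chow arrays. The diet arrays were under the floor, so the drug arrays were higher than them by at least 16.3-fold in the 2-month study and at least 9.21-fold in the 5-month study. In the additive fit limma called Sult1e1 (adjusted p = 0.0192, between 0.00881 and 0.0598 over 9 settings, 8 of which called it). Sult2a8, a bile acid sulfotransferase of mouse liver, had 1392 with canertinib and diet, 11615 with diet and 19753 with chow at 2 months. At 5 months it had 7077 with canertinib and diet, 7865 with diet and 21742 with chow. Its drug differences were -3.06 and -0.15 and its diet differences -0.77 and -1.47, and limma called neither effect. Sult3a1, which sulfates amines, was above the floor only on the 2-month drug array, where it was at least 1.84-fold higher, and Sult4a1 and Sult1c1 were near or under the floor on all arrays.

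The listed genes of cosubstrate supply, enzymes and transporters, were all measured, 10 of 10. Ugdh, which makes UDP-glucuronic acid from UDP-glucose, fell with the drug. Its signal was 2694 with canertinib and diet, 7558 with diet and 8513.5 with chow at 2 months, and 3169 with canertinib and diet, 8499 with diet and 8263 with chow at 5 months. The log2 differences of -1.49 and -1.42 were close to each other, and limma gave -1.46 ± 0.14 (adjusted p = 0.0231, between 0.00198 and 0.0797 over 10 settings, 8 of which called it). Ugp2, which makes UDP-glucose, had -0.83 and -1.06 with the drug and was not called (limma adjusted p = 0.0792). On the sulfate side, Papss1, a PAPS synthase gene, had -0.55 and -0.15, and Slc35b3, a PAPS transporter gene, had 0.69 and 0.38. The other PAPS synthase gene, Papss2, was brighter and had -0.18 and 0.06 by its brightest probe set. Of the 10 genes 1 and then 2 were at least 2-fold lower with the drug at 2 and 5 months and none was at least 2-fold higher, and the medians were -0.25 and 0.06.

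Transporters of conjugates were measured for 10 of 11 listed genes, and with the drug 3 of them were lower by 2-fold or more at 2 months, namely Abcc3, Abcg2 and Slco1a1, and 3 at 5 months, namely Abcc3, Abcg2 and Slco1a4. Higher by as much were Slco1a4 at 2 months, and Slco1a1 and Slc22a7 at 5 months. Abcg2, an exporter named after its values were seen, had -1.82 and -1.19. Abcc3, which exports glucuronides across the sinusoidal membrane, had 672 with canertinib and diet, 3839 with diet and 3546 with chow at 2 months, and 1707 with canertinib and diet, 4392 with diet and 3808 with chow at 5 months. Its log2 differences were -2.51 and -1.36, and limma did not call it (adjusted p = 0.0792), though 2 of 10 settings did. The organic anion uptake genes Slco1a1 and Slco1a4 had -2.23 and 1.13, and 1.74 and -1.40, so each had opposite signs in the 2 studies. Slc22a7, another organic anion carrier, had 0.22 and 1.53 with the drug and 0.03 and -2.17 with the diet. Of the deconjugating enzymes, the lysosomal sulfatase gene Arsa had drug differences of -1.41 and -0.80. Gusb, the lysosomal glucuronidase gene, had -0.12 and -0.51 by its brightest probe set and 0.10 and 0.02 by the other. The sulfatase gene Arsb had -0.27 and -0.45 by its brightest probe set and 0.24 and 0.19 by another, so no direction is given for either gene.

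Of 12 measured regulators of these genes, none was at least 2-fold lower with the drug and 0 and then 1 were at least 2-fold higher. The higher one was Hnf4a, a hepatocyte transcription factor, with 0.67 and 1.03 by its brightest probe set. Its other 3 probe sets gave 0.33, 0.97 and 0.27 at 2 months and 0.25, 0.47 and 0.41 at 5 months, so none of them reached 2-fold. Nfe2l2, which encodes the oxidative stress factor NRF2, had -0.61 and -0.41, Rxra had -0.31 and 0.74 and the bile acid receptor gene Nr1h4 had 0.32 and 0.43. None of the 4 was called by limma, though 1 of 10 other settings called Hnf4a.

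**Figure D5:**
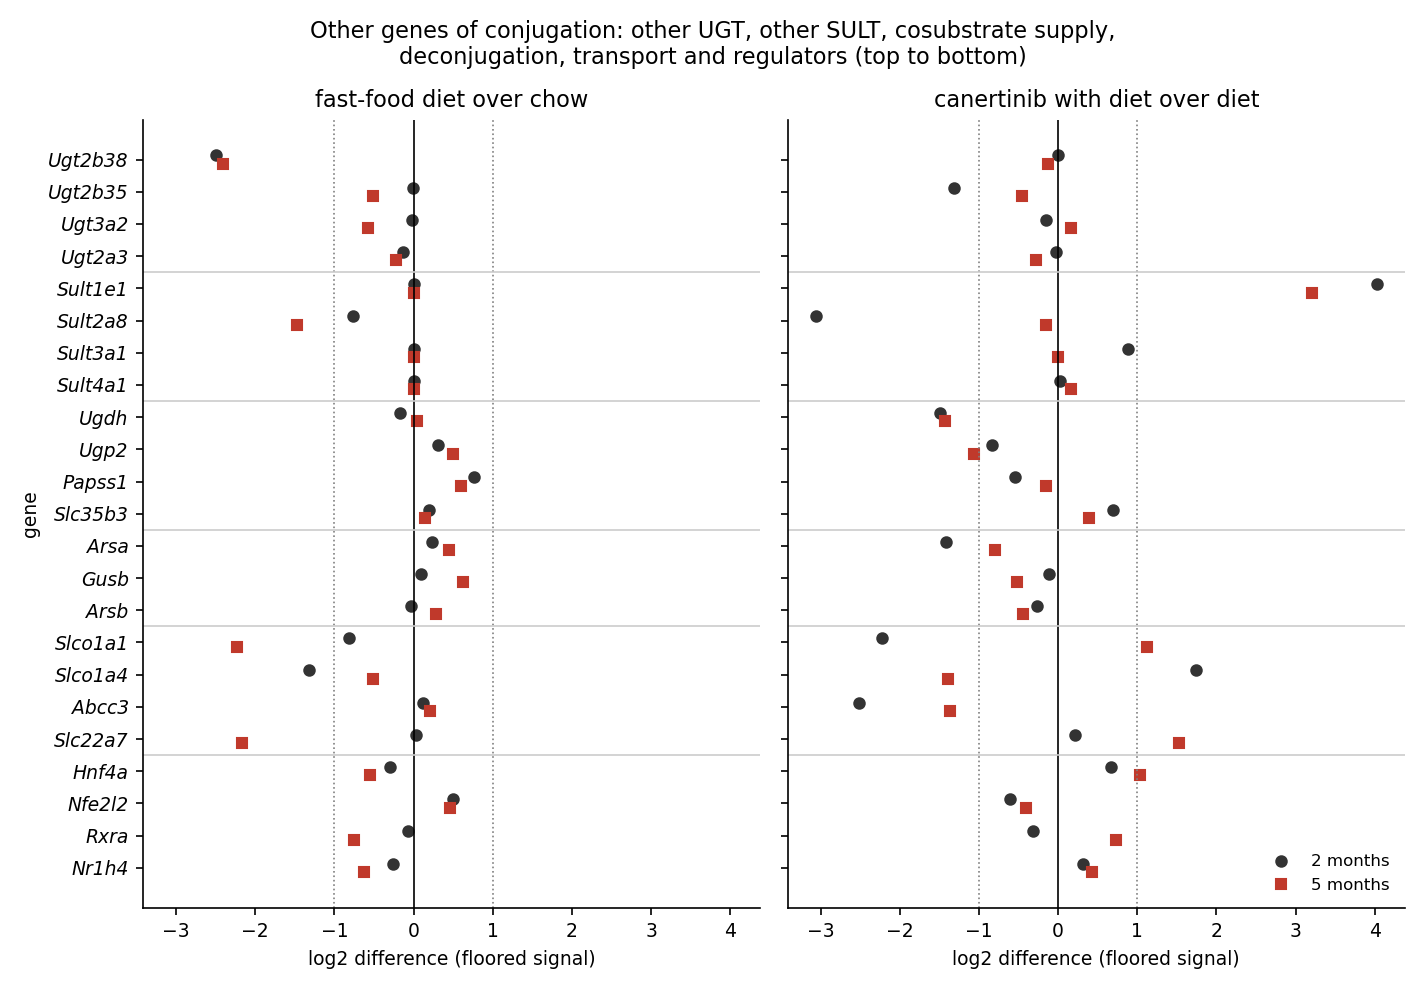
Log2 differences between single arrays for the up to 4 genes of each list of the conjugation pathway with the largest mean absolute difference, fast-food diet over chow in the left panel and canertinib with diet over diet in the right, with circles for 2 months and squares for 5 months. Grey lines separate the lists and dotted lines mark 2-fold. Sult1e1 lies farthest right under the drug, where its values are lower bounds, and Ugdh lies at -1.49 and -1.42.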

How the data were processed

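Biotin-labelled cRNA of pooled liver RNA was measured on 6 arrays, per the labels' protocols. Per the submitters' processing notes the deposited intensity values are MAS5 signals, version not given in the sources used here, and the mean of every array, leaving out 2% of its probe sets at either end, was 500, so the arrays had been brought to a common level before deposit. With 6 arrays, precision is low.

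Of 45101 probe sets, 34945 had 1 gene symbol, 932 several and 9211 none, and 13 control probe sets with a symbol were left out. The 5 UDP-glucuronosyltransferases, 5 sulfotransferases and all lists were chosen with earlier results of these data known. Signals were floored at their 50th percentile and log2 transformed. Comparisons within a study are single arrays without a test. limma 3.58.1 (R 4.3.3) fitted treatment and study with a variance trend and 2 residual degrees of freedom. It was also run on simulated data with the same noise SD for every gene and no study effect. Those settings differ from these data, so that run does not check the fit under their conditions. Nothing says that the arrays repeat each other beyond this design. Named were all members and, of each pathway list, up to 4 measured genes with the largest mean absolute difference. Other settings were 2 normalizations, 3 floors, 3 probe set choices, a stricter filter, 2 thresholds and 2 models. The promoter windows are RefSeq's, aligned with Biopython 1.88. Python 3.11.15, NumPy 2.4.6, pandas 2.3.3 and matplotlib 3.10.9 were used. Listed genes without a probe set of 1 symbol were not analysed here.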

Additional observations from a re-analysis of the deposited data

Results flagged for a closer look

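With 1 array per group, no array could be set against others of its group. Of the named genes, 3 had drug differences of opposite sign in the 2 studies, each larger than the median absolute difference between the chow arrays, 0.21 on the log2 scale. Slco1a1 had -2.23 at 2 months and 1.13 at 5 months, which are 3.35 apart. Slco1a4 had 1.74 and -1.40, where the 5-month value is lower by a difference of -3.14. Rxra had -0.31 and 0.74, which are 1.05 apart. These differences between the studies were not tested, and no member of the 10 met the rule.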

How the results depend on the processing

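The labels give no replicate numbers, and the study term of the fit pairs the arrays within each study. Across the alternatives, 158 of 180 values that describe the members as a group stayed close to the main value. Close meant within 1.5 times for counts. For medians it meant within 0.28 log2, the SD of a single array estimated from the difference of the 2 chow arrays. No single gene at least 2-fold different changed sign. The cause of the following moves was not tested. A threshold of 1.5-fold gave 1 member lower with the diet at 2 months, 3 lower and 1 higher at 5 months, and 4 lower with the drug at 2 months. At 3-fold, 1 member was lower with the drug at each time and 0 were higher. The 60th percentile floor left 1 lower with the drug at 5 months. Without probe sets ending in _s_at, _x_at or _a_at, which removes Sult1a1, 1 and 0 members were higher with the drug at 2 and 5 months, and the 5-month medians were -0.62 for UDP-glucuronosyltransferases and -0.54 for sulfotransferases. Quantile normalization gave -0.63 for the UDP-glucuronosyltransferases there. Dimmer probe sets, an alternative chosen after seeing the data, gave 4 members lower with the drug at 2 months and -0.62 for the same 5-month median. With genes above the floor on all arrays, which leaves out Sult1c2, the 2-month sulfotransferase median was 0.72. In the drug fit, where 2 members were called, 1 was called with the 40th percentile floor, without those probe sets or without the study term, and 0 with the mean over probe sets or without a variance trend. The whole count of 57 higher and 43 lower genes ranged between 6 and 1 with the mean over probe sets and 185 and 199 with genes above the floor on all arrays. With the diet, the count of 4 higher and 0 lower genes ranged between 0 and 0 with the 40th percentile floor and 97 and 37 with genes above the floor on all arrays, and 0 members were called under any setting.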

Other observations

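The Ugt1a genes share their later exons, and 3 probe sets are listed with the same 8 symbols of that group, so they were assigned to no gene. They had drug differences of 0.34, 0.13 and 0.13 on the log2 scale at 2 months and of 0.28, 0.04 and -0.12 at 5 months. With the diet alone, against chow, the 2-month differences were 0.11, 0.25 and 0.21, and those of the 5-month study -0.14, -0.22 and -0.12. The values cover the Ugt1a group as a whole, and none of the 3 probe sets was 2-fold different in any comparison. One probe set listed with 2 symbols of the Ugt2a group was under the floor on all 6 arrays.

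The motif GTTA, 4 bases of any kind and TTAAC was in the promoter window of 30 measured genes. The 5 UDP-glucuronosyltransferase members, Ugt2b35 and Ugt2b38 were among them. With the drug, 13.3% of these 30 genes were lower by 2-fold or more in the 2-month study, against 3.29% of 11215 measured genes with a window. That share is 4 genes, and Ugt2b1, Ugt2b5 and Ugt2b35 are among the 4. In the 5-month study the shares were 6.67%, which is 2 genes with Ugt2b1 among them, and 2.73%. Higher by as much were 6.67% of the 30 in each study, against 3.46% and 2.08%. The medians were -0.19 and -0.13, against 0. As the UGT2B genes gave the motif, these shares are a description of the 30 genes and no support for a role of the sequence.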
